A study of Mus musculus with 2 samples.

Results

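The genes described here encode 9 RNA-binding proteins that are counted among the indirect readers of N6-methyladenosine (m6A): Igf2bp1, Igf2bp2, Igf2bp3, Fmr1, Fxr1, Fxr2, Hnrnpa2b1, Hnrnpc and Elavl1. The question was where m6A was listed on the mRNAs of these proteins, in which cells and by which tools. The genes were chosen by name. No measured value enters the rule, but earlier results of these data were known when it was set. A position belonged to a gene when it lay within an exon on the same strand (GENCODE M21 annotation, GRCm38 build). The 9 genes held 226 of the 160430 positions listed anywhere, and they were 9 of the 10583 genes with a listed position.

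Poly(A) RNA of mouse 129 embryonic stem cells (mESCs) was read as native RNA by nanopore direct RNA sequencing (DRS), with 1 library of wild-type (WT) cells and 1 library of Mettl3 knockout (KO) cells. Mettl3 is the catalytic subunit of the methyltransferase that writes most m6A in mRNA, and in the KO cells exons 5 to 7 of the gene were replaced by resistance genes for puromycin and hygromycin, with colonies selected for loss of both alleles. By mass spectrometry, the paper found the mRNA of the KO cells almost free of m6A. It proposes that many sites called in KO by tools run on that library alone are false positives. The deposited data are 17 lists of positions from 10 tools. For 7 tools (Tombo, Nanom6A, MINES, m6Anet, Epinano, ELIGOS and xPore) there is a list per library, and the other 3 (Nanocompore, DRUMMER and DiffErr) gave a single list of differences between the libraries, called comparison lists here. xPore fits the reads of both libraries in 1 model, so its WT and KO lists are not separate calls. A list gives positions only, with no score, rate of methylation or read number, so the depth behind a position is unknown and an unlisted position cannot be told apart from a position with too few reads. Fewer molecules of a transcript and less m6A per molecule cannot be told apart in these lists either. There are no replicates, so no test was made. Shares carry 95% Wilson intervals that cover counting error only, and values over all listed positions, which include the 9 genes, stand beside them as a background.

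Indirect readers differ from the YTH-domain readers, which hold the methylated adenosine in a dedicated aromatic pocket. Some, such as the Igf2bp proteins, are reported to prefer methylated RNA through their KH domains, and others, such as Hnrnpc, bind stretches that become accessible when m6A loosens a local RNA structure. In stem cells these proteins act on the splicing, transport, translation and stability of mRNA. Most m6A lies in RRACH (R is A or G, H is A, C or T, and the methylated base is the central A), and all 226 positions had such a 5-mer, read on the spliced transcript or, for 4 of Hnrnpa2b1 that lie only on non-coding transcripts, on the genome.

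A position with the most WT or comparison tools in each gene is shown first, to give an example from every gene. In 6 genes (all but Igf2bp3, Fxr1 and Hnrnpc) several positions tied, and then the one with the fewest KO tools and, after that, the lowest coordinate was taken, so that their absence from KO lists is in part set by this choice. Each sequence is the GRCm38 reference along the spliced transcript, 21 nt from 5′ to 3′, with the RRACH 5-mer in capitals and the listed A in the middle.
Igf2bp1, chr11:95957296, minus strand: gcgggctcGGACTtggctagt
Igf2bp2, chr16:22059641, minus strand: gaaagaatGGACTctctctcc
Igf2bp3, chr6:49085946, minus strand: gaaacatcGGACTtccctttg
Fmr1, chrX:68716324, plus strand: accctgtcAAACAttagtact
Fxr1, chr3:34064247, plus strand: tagacggaGGACTgatgaaga
Fxr2, chr11:69649824, plus strand: gacaagaaGAACCccagggag
Hnrnpa2b1, chr6:51462012, minus strand: tgccacaaAGACTgtaaagtg
Hnrnpc, chr14:52077434, minus strand: cgaagagtGGACAaaggggat
Elavl1, chr8:4305029, minus strand: aagtagcaGGACAcagcttgg
The tools behind each position are given with its gene further on.

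The labels were first read against the lists. On Mettl3 itself, the replaced exons 5 to 7 held 2 positions of WT lists and 0 of KO lists, and with the exons before them, 1 to 7, the counts were 9 and 0. The exons downstream of the replaced part, 8 to 11, held 4 WT and 5 KO positions and check nothing about the label. All 8 markers of embryonic stem cells, Pou5f1, Sox2, Nanog, Klf4, Esrrb, Zfp42, Tdgf1 and Dppa5a, had between 6 and 53 positions. Of markers of other cell types, 2 of 4 for fibroblasts had a position (Col1a1 with 3, all in KO, Thy1 with 4, and Col1a2 and Acta2 at 0). So did 1 of 4 for primitive endoderm (Sox17 with 12, all in WT, and Gata6, Gata4 and Sox7 at 0) and 0 of 4 for mesoderm and neural cells. The part of such cells in the values below was not tested.

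Of the 226 positions, 206 were in a WT list and 168 in a KO list. Both WT and KO lists held 148 of them, 58 were in WT only and 20 in KO only. The positions in KO only were 8.85% (5.80% to 13.3%) of the 226, against 19.6% over all positions, and 11.9% (7.84% to 17.7%) of the 168 KO positions, against 29.2% over all KO positions. Of the 206 WT positions, 71.8% (65.3% to 77.5%) were thus listed again in KO by some tool, against 59.0% over all WT positions, of which 41.0% were in no KO list. This share was not even over the genes. It ran from 44.1% in Igf2bp1 to 96.9% in Hnrnpa2b1, and over the other 8 genes it was 67.2% (60.0% to 73.8%) without Hnrnpa2b1 and 77.3% without Igf2bp1. By family, 50 of 83 WT positions (60.2%, 49.5% to 70.1%) of the Igf2bp genes were listed again in KO, 41 of 59 (69.5%, 56.9% to 79.7%) of Fmr1 and its paralogues, and 51 of 55 (92.7%, 82.7% to 97.1%) of the 2 hnRNP genes.

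**Figure D1:**
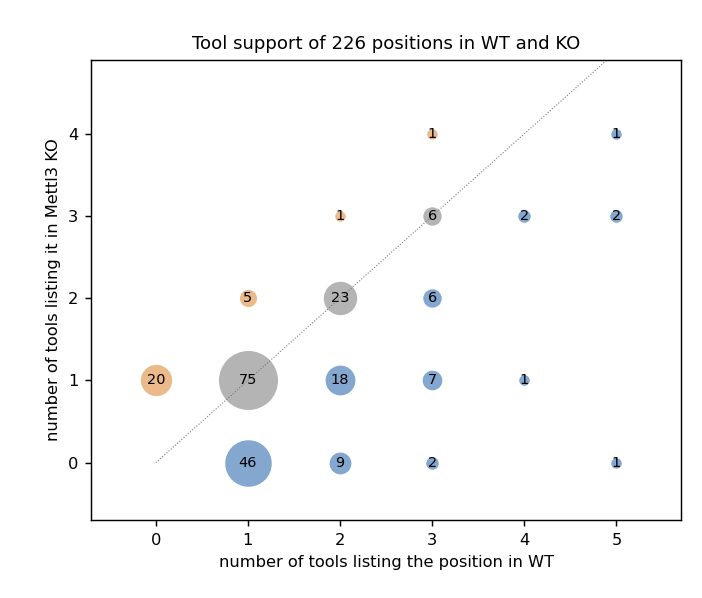
Number of tools that listed each of the 226 positions in WT (x axis) and in Mettl3 KO (y axis), with the number of positions printed in each circle and the circle area growing with it. Blue circles have more tools in WT, orange circles more in KO and grey circles lie on the line of equal numbers, where 104 positions sit. Only WT and KO lists are counted.

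Most positions rested on few tools, as the plot of tool support shows. A single tool listed 126 of the 206 WT positions (61.2%, against 65.5% over all), 51 had 2 tools (24.8%, against 22.3%), 22 had 3 (10.7%, against 7.20%) and 7 had 4 or more (3.40%, against 5.04%). With the comparison lists counted too, at least 5 tools listed 4 of them, against 3.28% over all. In 95 positions (42.0%, against 45.2% over all) more tools listed the position in WT than in KO. In 104 (46.0%, 39.6% to 52.5%, against 31.4%) the numbers were equal, and in 27 (11.9%, 8.34% to 16.8%, against 23.4%) more tools listed it in KO. Among WT positions with 2 or more tools, 12 of 80 (15.0%, 8.79% to 24.4%) were in no KO list, against 29.4% over all such positions. These 12 lay in Igf2bp1 (5), Igf2bp2 (3), Fxr2 (2), Fxr1 (1) and Hnrnpc (1). The 20 positions in KO only had 1 tool each, as did 90.1% of such positions over all, and they were spread over the 9 genes with at least 1 in each.

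The positions in the comparison lists, which name sites that differ between WT and KO reads, were fewest. Of the 206 positions, 1 (0.485%, 0.0857% to 2.70%) was in such a list, against 2.45% over all, which the interval includes. In 2 or more of these lists there were 0, against 1.12%. Accordingly 0 of the 9 genes had a position in 2 or more of them, against 9.37% of all genes. The gene was Hnrnpa2b1, so 1 of the 9 genes had a comparison position, where 16.3% of all genes with a WT or comparison position had one. Nanocompore listed it at chr6:51463208, a GAACA in exon 12, 70 nt after the stop codon (distances count from its first base). Tombo and Nanom6A listed the same position in WT and again in KO.

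**Figure D2:**
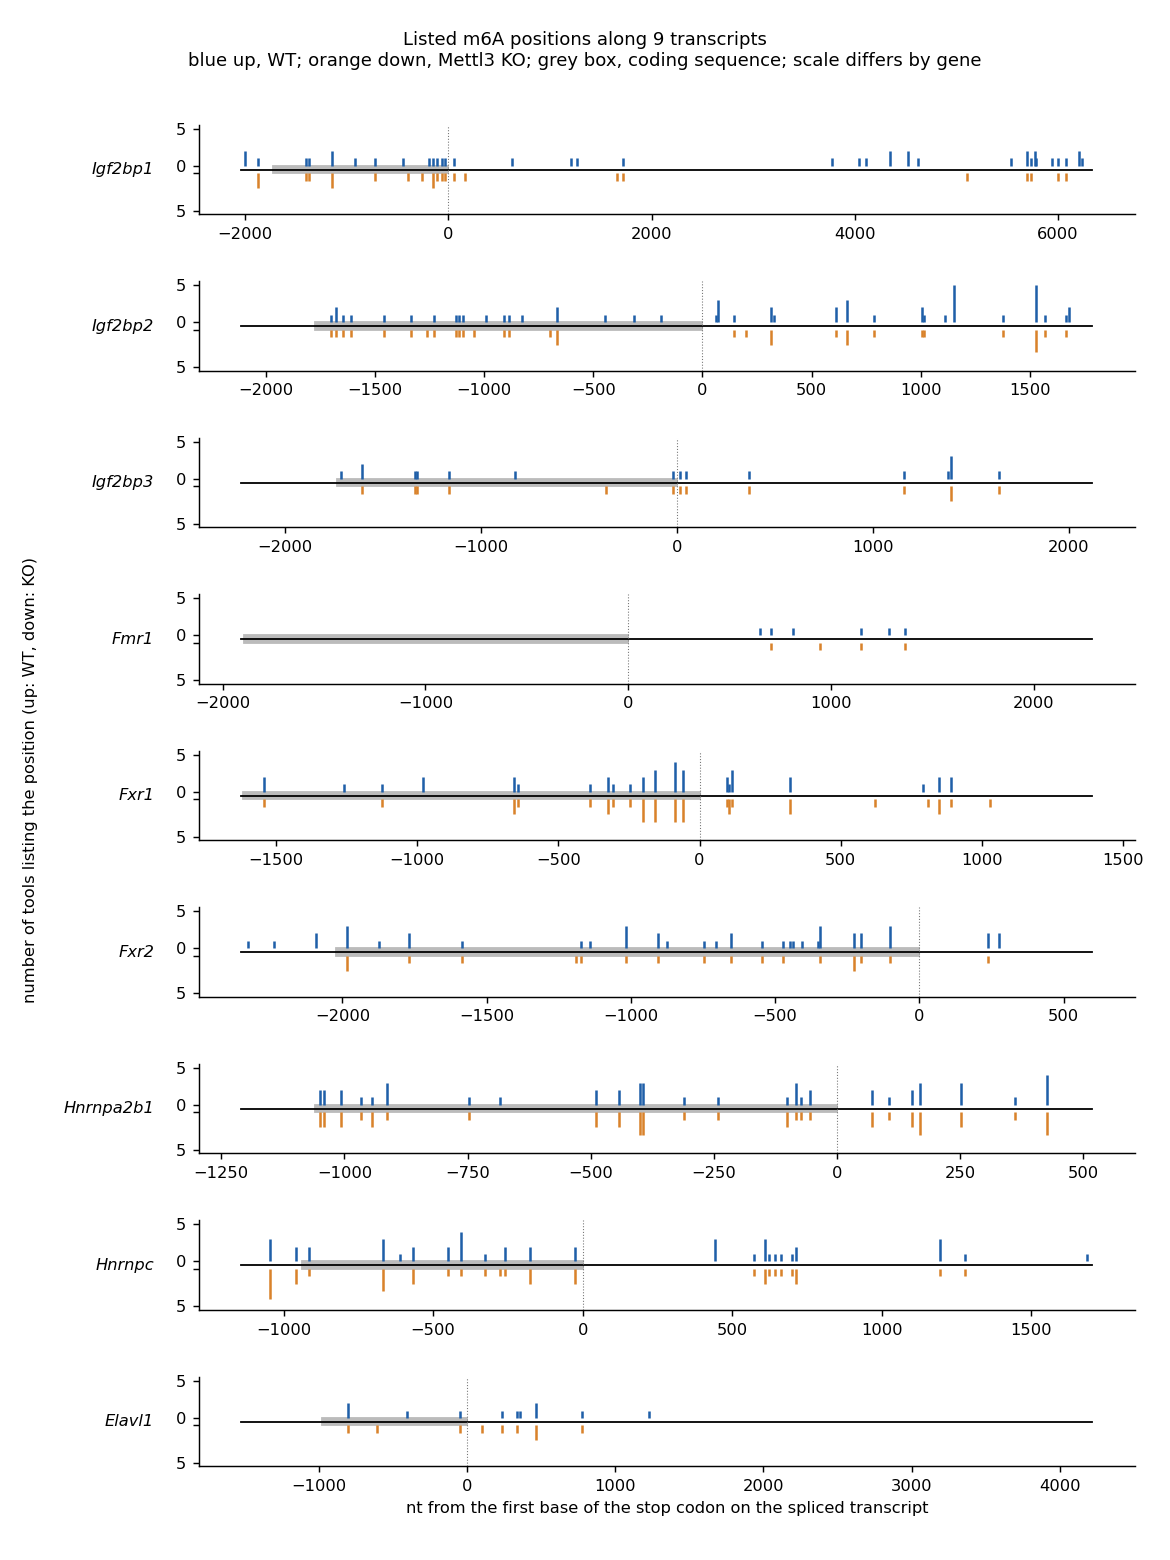
Listed positions along the spliced transcript of each gene, in nt from where the stop codon begins, with a grey box for the coding sequence and thin black lines for the UTRs. The height of each line is the number of tools that listed the position, in WT (blue, upward) and in Mettl3 KO (orange, downward). The x scale differs between genes, and 14 positions on other transcripts of Fxr1 and Hnrnpa2b1 are not drawn.

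Igf2bp1 encodes an oncofetal protein that binds Myc and β-actin mRNA and protects targets from decay. The gene (ENSMUSG00000013415) lies on the minus strand at chr11:95957163-96005940, and the transcript used here, ENSMUST00000013559, has 15 exons and a 3′ UTR of 6337 nt. Of its 39 positions, 34 were in WT and 20 in KO, and 15 were shared. The WT-only positions numbered 19, the most of any of the 9 genes. In the first 1000 nt of the 3′ UTR, WT and KO lists held 2 positions each, and in the next 1000 nt 3 and 2. Between 3000 and 5000 nt after the stop codon, WT lists held 6 positions and KO lists 0, where 41.0% of all WT positions were in no KO list. They lay from 3772 to 4627 nt after the stop codon, and Tombo listed 5 of them and Epinano the other. In the following 1000 nt, WT lists held 7 positions and KO lists 4, with 3 shared, and in the last stretch, from 6000 nt to the 3′ end, 3 and 1. None of the 19 RRACH motifs between 2000 and 3000 nt was listed by any tool in either library. The 5 positions that 2 tools listed in WT and none in KO are shown because no other gene had as many, with the tools named beside each.
Igf2bp1 5′ UTR, chr11:96005904, Tombo and Epinano: ggggtttcGGACCgaagggaa
Igf2bp1 3′ UTR, chr11:95959156, Tombo and MINES: gcttggcaGGACAttgcagga
Igf2bp1 3′ UTR, chr11:95958975, Tombo and MINES: aagatccgGGACAggccacat
Igf2bp1 3′ UTR, chr11:95957728, Tombo and m6Anet: gtgcttctGGACTcgttaggg
Igf2bp1 3′ UTR, chr11:95957296, m6Anet and Epinano: gcgggctcGGACTtggctagt
All 5 had a 5-mer that begins with GGAC, as did 60.2% of all positions with 2 or more WT tools and no KO tool. Of the 5, 2 rest on MINES, which reads only AGACT and 5-mers that begin so. The last lies 133 nt before the annotated 3′ end. No position in Igf2bp1 had more than 2 tools in WT or in KO.

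Igf2bp2, a paralogue with roles in metabolism and in stem cell maintenance, had 39 positions as well (ENSMUSG00000033581, chr16:22059009-22163299, minus strand; ENSMUST00000100052, 16 exons). WT lists held 35, KO lists 28, and both 24. Its 3′ UTR of 1784 nt contained the position with the largest gap between the libraries. At chr16:22059641, a GGACT 1154 nt after the stop codon in exon 16, Tombo, Nanom6A, m6Anet, Epinano and xPore listed the position in WT and no tool did in KO. Over the 226 positions no other had 5 WT tools and no KO tool. A position further along the same 3′ UTR read differently. At chr16:22059269, a GGACA 1526 nt after the stop codon (cttcttgtGGACAaacctaaa), 5 tools also listed the position in WT (Tombo, MINES, Nanom6A, m6Anet and ELIGOS), and Tombo, MINES and Nanom6A listed it again in KO. A GGACA at chr16:22060134, 661 nt after the stop codon, was in the xPore and Tombo lists of both libraries and in the WT list of m6Anet (cttgtcaaGGACActtaatgg). The Epinano lists held 3 positions of Igf2bp2 in WT and 0 in KO, and those of m6Anet 11 and 4, with 3 shared. Over all WT positions, 83.5% of those of Epinano and 65.6% of those of m6Anet were not listed again by the same tool.

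Igf2bp3, the third oncofetal paralogue, had 15 positions (ENSMUSG00000029814, chr6:49085223-49214957, minus strand; ENSMUST00000031838). Of these, 14 were in WT and 12 in KO, with 11 in both. Tombo accounted for 12 of the WT and 11 of the KO positions, and neither Nanom6A nor m6Anet listed any in either library. The GGACT shown above for this gene lies 1398 nt after the stop codon in exon 15, where Tombo, MINES and Epinano listed it in WT and Tombo and MINES in KO. Every other position of Igf2bp3 had at most 2 WT tools.

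Fmr1 encodes FMRP, a repressor of translation in neurons whose loss causes fragile X syndrome. It had the fewest positions, 7 (ENSMUSG00000000838, chrX:68678541-68717963, plus strand; ENSMUST00000114655). All 7 lay in the 3′ UTR, between 651 and 1367 nt after the stop codon. Epinano, which reads basecalling errors, was the only tool that listed any, with 6 in WT and 4 in KO, 3 of them shared. The AAACA shown above at chrX:68716324 was in its WT list only. No current-based tool listed a position in Fmr1. Over all genes with a WT or comparison position, 93.3% had a WT position of Tombo.

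Fxr1, an autosomal paralogue of Fmr1 with a part in muscle development, had 29 positions, of which 26 were in WT and 26 in KO (ENSMUSG00000027680, chr3:34019943-34070322, plus strand; ENSMUST00000200392, with 5 positions placed on ENSMUST00000001620). The share of WT positions listed again in KO was 88.5% (71.0% to 96.0%). The last part of the coding sequence carried 4 positions that 3 tools listed in KO, all in exon 15. They are shown in order along the transcript, with the distance to the stop codon.
Fxr1, chr3:34064134, 200 nt before the stop codon: aaagatccAGACAgcaatcca
Fxr1, chr3:34064178, 156 nt before the stop codon: atccgatcAGACTgcagacac
Fxr1, chr3:34064247, 87 nt before the stop codon: tagacggaGGACTgatgaaga
Fxr1, chr3:34064276, 58 nt before the stop codon: tgatggatGGACTgactgaat
The second was listed by Tombo, Nanom6A and Epinano in both libraries, the third by these 3 in both and also by m6Anet in WT, and the fourth by Tombo, Nanom6A and m6Anet in both. The first had Tombo and Nanom6A in WT, and m6Anet in addition in KO. Only chr3:34049161, an AAACA in exon 8 of the coding sequence, had 2 tools in WT (Nanom6A and Epinano) and none in KO (aatgcacaAAACAacttgcag).

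Fxr2, the remaining paralogue, had nearly as many positions, 28, but in another pattern (ENSMUSG00000018765, chr11:69632990-69653297, plus strand; ENSMUST00000018909, 3′ UTR of 598 nt). WT lists held 27 and KO lists 16, with 15 shared, so that 55.6% (37.3% to 72.4%) of the WT positions were listed again. Of the 28, 23 lay in the coding sequence. Nanom6A listed 13 positions in WT and 2 in KO, both among the 13, whereas in Fxr1 it listed 19 and 17. m6Anet listed 11 in WT and 2 in KO, both among the 11. Over all WT positions, 65.6% of those of m6Anet and 34.6% of those of Nanom6A were not listed again by the same tool. Tombo differed less, with 14 and 11. The GAACC shown above at chr11:69649824 lies in exon 10 of the coding sequence, and Tombo, m6Anet and ELIGOS listed it in WT and Tombo again in KO. The 3 positions in the 5′ UTR were in WT lists only, and 1 of them, a GGACC at chr11:69633248, had both Tombo and m6Anet (gacgccggGGACCcggcccgg). The other position with 2 WT tools and no KO tool was a GAACA 277 nt after the stop codon at chr11:69652974, in the lists of Nanom6A and m6Anet (cgacctctGAACAcccccatt).

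Hnrnpa2b1, a nuclear protein of splicing and microRNA processing that has been described as an m6A reader, had 34 positions, 32 in WT and 33 in KO, with 31 in both (ENSMUSG00000004980, chr6:51460932-51469894, minus strand). Its main transcript here was ENSMUST00000114459, while 5 positions lay only on ENSMUST00000203954, which has another 3′ UTR, and 4 only on non-coding transcripts of the gene. Nanom6A listed 32 positions in WT and 31 in KO, 30 of them the same, and Tombo 15 in each. All 25 RRACH motifs of the main transcript were listed in WT and 24 in KO. Of the 7706 genes with 25 or more motifs, 12 (0.156%) had every motif listed in WT. The same 3 or more tools listed 5 positions in both libraries, 4 in 3′ UTR exons and 1 in exon 7, and these are shown, with the tools that listed them in both, because no other gene had as many.
Hnrnpa2b1 3′ UTR, chr6:51462012, Tombo, MINES and Nanom6A: tgccacaaAGACTgtaaagtg
Hnrnpa2b1 3′ UTR, chr6:51462037, Tombo, MINES, Nanom6A and Epinano: tgaaccatGGACAagtatatt
Hnrnpa2b1 3′ UTR, chr6:51462852, Tombo, Nanom6A and Epinano: gtgtaataAGACAtaacgttt
Hnrnpa2b1 3′ UTR, chr6:51463109, Tombo, Nanom6A and m6Anet: gcagatgcAGACAgccatttt
Hnrnpa2b1 exon 7, chr6:51466170, MINES, Nanom6A and m6Anet: ttggaccaGGACCaggaagca
The 2 first sit on the alternative 3′ UTR, 67 and 42 nt after its stop codon, and ELIGOS listed both in WT and neither in KO. The former was in the WT list of m6Anet too. Of the 7 WT positions of ELIGOS in the 9 genes, 4 were in Hnrnpa2b1, and the only KO position of ELIGOS was in this gene too, an AAACT in exon 3 at chr6:51467222 that Nanom6A listed in both libraries (agtttgagAAACTactatgag). In the same exon, chr6:51467192 was in the WT and KO lists of xPore (aagctcacAGACTgtgtggtt). No position of Hnrnpa2b1 had 2 or more WT tools and no KO tool.

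Hnrnpc, which binds runs of U in nuclear RNA and guides splicing, had 24 positions (ENSMUSG00000060373, chr14:52073377-52104028, minus strand; ENSMUST00000111610). WT lists held 23, KO lists 21, and both 20. Nanom6A listed 16 in WT and 10 in KO, all 10 among the 16, and Tombo 17 and 16. The position with most WT tools, the GGACA shown above at chr14:52077434 in exon 6, had Tombo, MINES, Nanom6A and Epinano in WT and Tombo alone in KO. In contrast, an AGACT in the 5′ UTR at chr14:52103933 had 3 tools in WT (Tombo, Nanom6A and Epinano) and the same 3 with MINES in KO (ctcggcgtAGACTcgcagtag). A GAACC in exon 4 at chr14:52081873 was listed by Tombo, Nanom6A and Epinano in both libraries (ccaaaagtGAACCgaggaaaa). Of the 24 positions, 5 lay in a stretch of 41 nt that also occurs in a transcript of another gene, Gm12696, and this exon 4 position is among them, so its reads could come from either. A GGACT 443 nt after the stop codon was in the WT lists of Tombo, Nanom6A and m6Anet and in no KO list (chr14:52074639, cgtgagtgGGACTgttacaac).

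Elavl1 encodes HuR, which binds AU-rich elements and stabilises mRNA. It had 11 positions, 9 in WT, 8 in KO and 6 in both (ENSMUSG00000040028, chr8:4285382-4325413, minus strand; ENSMUST00000098950). Its 3′ UTR of 4218 nt held 7 of them, and all 7 lay within the first 1231 nt. The 23 RRACH motifs further than 2000 nt after the stop codon were in no list. Tombo listed 7 positions in WT and 8 in KO. Nanom6A listed none, although 45.6% of all genes with a WT or comparison position had a WT position of Nanom6A. The GGACA shown above at chr8:4305029 in exon 3 was listed by m6Anet and Epinano in WT and by Tombo in KO, so that no tool listed it in both.

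**Figure D3:**
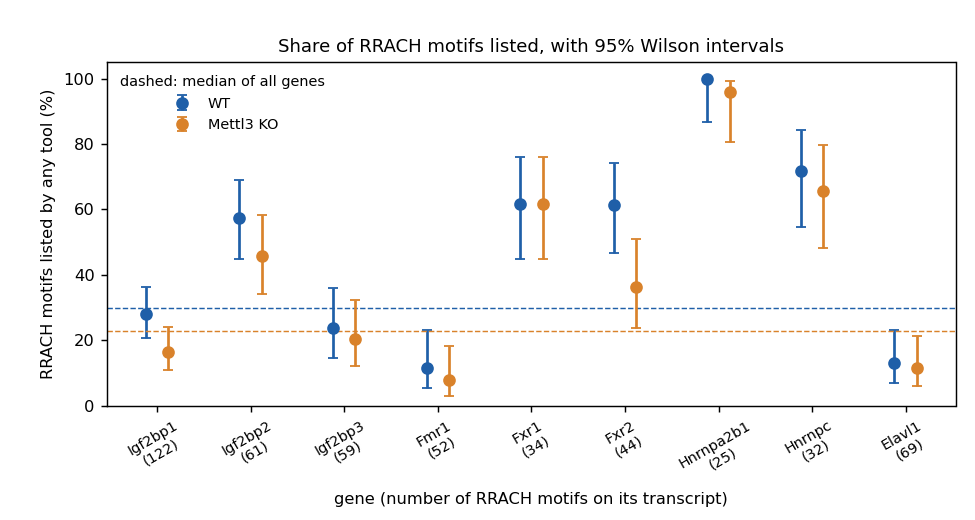
Share of the RRACH motifs on the main transcript of each gene that at least 1 tool listed, in WT (blue) and in Mettl3 KO (orange), in percent with 95% Wilson intervals. The number of motifs stands under each gene, and the dashed lines are the medians over 10032 genes, 30.0% in WT and 22.9% in KO.

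Since the genes differ in length, the listed share of their RRACH motifs compares them better than a count. In WT it was 100% in Hnrnpa2b1, 71.9% in Hnrnpc, 61.8% in Fxr1, 61.4% in Fxr2, 57.4% in Igf2bp2, 27.9% in Igf2bp1, 23.7% in Igf2bp3, 13.0% in Elavl1 and 11.5% in Fmr1, with 30.0% as the median over all genes. The plot of these shares shows a gap between Igf2bp2 (44.9% to 69.0%) and Igf2bp1 (20.7% to 36.4%), whose intervals did not overlap. The intervals of Igf2bp2, Fxr1, Fxr2 and Hnrnpc overlapped each other, and so did those of Igf2bp3, Elavl1 and Fmr1. In KO the share was the same as in WT for Fxr1 (61.8%) and close to it for Hnrnpa2b1 (96.0%) and Elavl1 (11.6%). It was lower in the other genes. There it was 65.6% in Hnrnpc, 45.9% in Igf2bp2, 20.3% in Igf2bp3, 16.4% in Igf2bp1 and 7.69% in Fmr1. In Fxr2 it was 36.4% (23.8% to 51.1%), which overlaps its WT interval (46.6% to 74.3%). The median over all genes was also lower in KO, 22.9%. How far coverage of the transcripts sets this order was not tested.

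**Figure D4:**
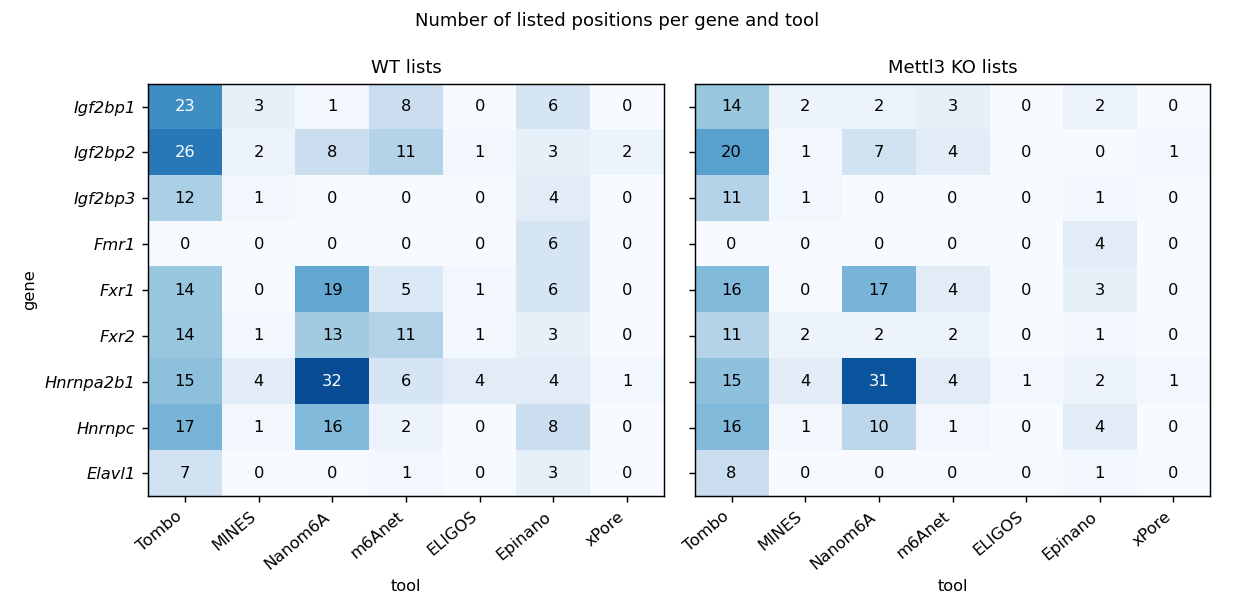
Number of listed positions per gene (rows) and tool (columns) in the WT lists (left) and the Mettl3 KO lists (right), printed in each cell, with darker blue for higher counts on a common scale. Nanom6A on Hnrnpa2b1 holds the highest count, 32 in WT and 31 in KO.

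The tools divided the 9 genes in different ways, as the grid of genes and tools shows. Tombo, which tests current shifts against a canonical model, listed 128 WT and 111 KO positions in 8 genes, and 67 of the WT positions were in no other WT list. Its 128 were 62.1% of the 206 WT positions, against 58.3% over all. Nanom6A, a classifier of single-read current features, listed 89 and 69 in 6 genes, and its 89 made up 43.2%, against 26.0%. m6Anet, a neural network on current features, listed 44 (21.4%, against 18.2%) and 18. Epinano, based on basecalling errors, was the only tool with WT positions in all 9 genes, 43 in WT and 18 in KO, and its 43 made up 20.9%, against 34.5%. MINES, which starts from Tombo output, listed 12 in WT (5.83%, against 10.4%) and 11 in KO. ELIGOS, another error-based tool, listed 7 (3.40%, against 4.63%) and 1, and xPore, which fits a mixture of current distributions, 3 (1.46%, against 4.16%) and 2. Of the 12 WT positions of MINES, 11 were also in the WT list of Tombo. Of the 44 of m6Anet, 16 were shared with Tombo and 20 with Nanom6A. Tombo and Nanom6A shared 46 positions, which is 35.9% of the first list and 51.7% of the second.

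**Figure D5:**
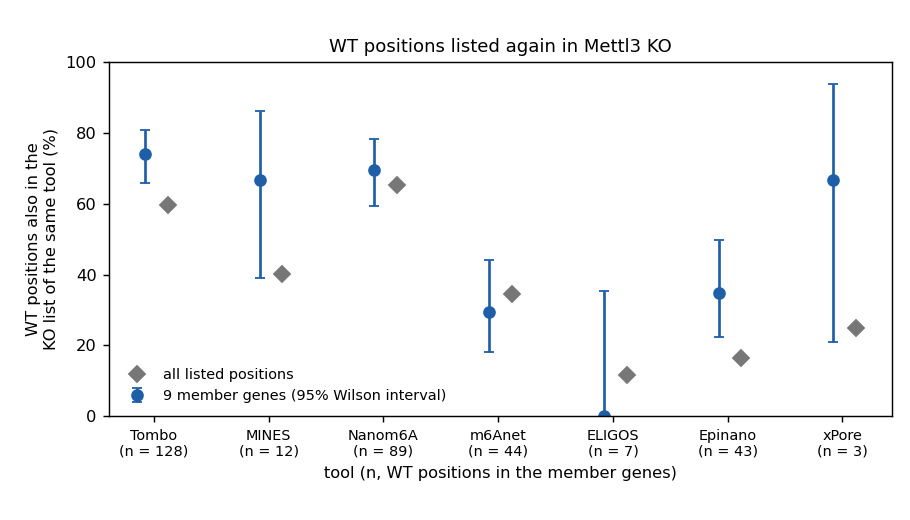
Share of WT positions that the same tool listed again in Mettl3 KO, in percent, for the 9 genes (blue circles with 95% Wilson intervals) and for all listed positions (grey diamonds). The number of WT positions in the 9 genes stands under each tool, and for ELIGOS, MINES and xPore it is 12 or fewer.

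Within a tool, the WT positions listed again in KO made up 74.2% (66.0% to 81.0%) for Tombo, against 59.7% over all WT positions of Tombo, of which 40.3% were not in its KO list. For Epinano the share was 34.9% (22.4% to 49.8%) against 16.5%, with a background of 83.5% not listed again. Both intervals lay above the share over all positions. For Tombo the genes differed, with 14 of 14 WT positions listed again in Fxr1, 14 of 15 in Hnrnpa2b1 and 16 of 17 in Hnrnpc. In the other genes it was 10 of 12 in Igf2bp3, 5 of 7 in Elavl1, 17 of 26 in Igf2bp2, 8 of 14 in Fxr2 and 11 of 23 in Igf2bp1. The intervals of the other 5 tools included the share over all positions. Nanom6A had 69.7% (59.5% to 78.2%) against 65.4%, with 34.6% not listed again over all, and m6Anet 29.5% (18.2% to 44.2%) against 34.4%, with 65.6%. For MINES it was 8 of 12 positions (39.1% to 86.2%) against 40.2%, with 59.8% not listed again over all. For xPore it was 2 of 3 against 24.9%, with 75.1%. None of the 7 ELIGOS positions was listed again by ELIGOS, which allows a share of up to 35.4%, against 11.5%, with 88.5%. All 7 were in the KO list of some other tool. Counted against the KO lists of all tools, the share listed again was 100% for ELIGOS (67.6% over all), 65.9% for m6Anet (64.1%), 62.8% for Epinano (43.7%) and 86.5% for Nanom6A (80.7%). These intervals treat every position as independent. Positions of 1 gene share their reads, so the intervals are likely too narrow.

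Place on the transcript was compared next, since m6A in mRNA is known to gather near the stop codon and in the 3′ UTR. Of the WT positions on a coding transcript, 36 of 204 (17.6%, 13.0% to 23.5%) lay within 200 nt of the stop codon, on either side of its first base, against 22.4% over all. Among all 498 RRACH motifs of the 9 transcripts the share was 11% (8.58% to 14.1%). For KO positions it was 35 of 164 (21.3%) against 21.0%. Of the 58 positions in WT only, 4 (6.90%, 2.71% to 16.4%) lay there, all 4 in Igf2bp genes. Over all WT-only positions the share was 20.9%, but the interval includes the 11% of the RRACH motifs. In the 3′ UTR lay 31 of these 58 (53.4%, 40.8% to 65.7%) and 58 of the 146 in both libraries (39.7%, 32.2% to 47.8%). Over all positions these shares were 43.9% and 38.8%, which both intervals include, and 52.0% of the RRACH motifs of the 9 transcripts lay in the 3′ UTR. The long 3′ UTR of Igf2bp1 held 15 of the 31. In the coding sequence, 103 of 108 WT positions (95.4%) were under 100 nt from an exon junction, against 76.8% over all. Of all coding RRACH motifs in these 9 genes, listed or not, 93.2% (89.2% to 95.9%) were that close, so the listed positions differed little from the motifs available.

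The 12 RRACH 5-mers were all used. AGACA was the most frequent, with 36 of 206 WT positions (17.5%, 12.9% to 23.2%) against 12.9% over all, and 30 of these 36 were also listed in KO (83.3%, against 71.2% of all AGACA positions). GGACT made up 20 (9.71%, 6.37% to 14.5%), against 11.9% over all and 6.43% of the RRACH motifs in the 9 transcripts, and 12 of the 20 were listed in KO (60.0%, against 52.7%). Of the 20 positions in KO only, 0 were GGACT, which allows a share of up to 16.1%, against 7.44% over all. Among the 12 positions with 2 or more WT tools and no KO tool, 8 (66.7%, 39.1% to 86.2%) had a 5-mer that begins with GGAC, against 60.2% over all such positions, and 9 (75%, 46.8% to 91.1%) lay in a 3′ UTR, against 52.8%. Among the 11 positions that the same 3 or more tools listed in both libraries, 5 read so (45.5%, against 62.9% over all), and 5 lay in a 3′ UTR (against 45.8%) and 5 in the coding sequence (against 51.1%).

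Because the genes include paralogues, their coding sequences were aligned and listed motifs at matching bases were compared. Aligned bases were identical at 64.6% to 70.9% in the 6 pairs tried within the Igf2bp and Fmr1 families. Between 2 and 10 RRACH motifs a pair fell at matching bases. Of these, both genes were listed at 2 in Igf2bp1 and Igf2bp2, at 1 in Igf2bp2 and Igf2bp3, at 2 in Fxr1 and Fxr2, and at 0 in the 3 other pairs. The pair of each family with the most alike windows and the pair listed by m6Anet only are shown, with the names of both genes.
Fxr1, chr3:34064134: aaagatccAGACAgcaatcca
Fxr2, chr11:69651538: aaggatccAGACAgcaatcct
Igf2bp2, chr16:22162833: gccttcgtGGACTaccccgac
Igf2bp3, chr6:49214344: gcgttcgtGGACTgcccggac
Igf2bp1, chr11:95966274: gagctgcaGAACTtgaccgca
Igf2bp2, chr16:22061957: gagctgcaGAACTtgacaagt
The Fxr1 and Fxr2 windows were identical at 19 of 21 bases, and Tombo listed both in WT and in KO. Their other matching AGACA, at chr3:34061939 and chr11:69651271, is weaker, with 10 of 21 window bases identical. It lies 308 nt before the stop codon in exon 14 of Fxr1 and 654 nt before it in exon 13 of Fxr2. The windows of Igf2bp2 and Igf2bp3 were identical at 18 of 21 bases in exon 1, each 47 nt from the exon junction, and Tombo listed both in WT and in KO. The windows of Igf2bp1 and Igf2bp2, identical at 17 of 21 bases and both 188 nt before the stop codon, were in the WT list of m6Anet and in no other list. The remaining AAACA pair of Igf2bp1 and Igf2bp2, 445 nt before both stop codons, was in WT lists only as well, by Epinano in the former and by Tombo in the latter.

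Other genes of the pathway were counted in the same way. The 8 genes of the writer complex held 182 positions, and 0 of them had a comparison position. Of the 5 YTH readers, 2 had one (Ythdf1 with 5 and Ythdf2 with 2), and of the 2 demethylase genes, 0. Of 8 further indirect readers, 7 had a listed position and 4 a comparison position, led by G3bp1 with 7. The share of WT positions listed again in KO was 46.1% for the writer complex, 52.3% for the YTH readers, 46.9% for the demethylases and 85.6% for the further indirect readers, beside 71.8% for the 9 genes. The median number of positions per gene was 28.0 in the 9 genes, against 13.0 over all genes with a position.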

How the data were processed

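The deposited files are lists of m6A positions, and the authors' values are positions only, with no unit of abundance. The authors basecalled the DRS reads with Guppy, aligned them with Minimap2 to the GENCODE VM18 transcriptome of GRCm38 (mm10 in the submitters' notes), ran 10 tools and converted transcript positions to genome positions. Per the methods, sites in RRACH with more than 5 reads (at least 20 for m6Anet) were tested, and each tool's cut-off was the one with the best summed F1 score against miCLIP and miCLIP2 sites. Whether the deposited lists used these cut-offs is not stated with them. Groups follow the authors' labels, with 1 library each.

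From the lists, unique positions were counted once per chromosome, base and strand and assigned to genes with the GENCODE M21 annotation, a later release. All 616 member lines with a transcript identifier matched the listed transcript position, and 158 of 158 Nanom6A lines carried the gene symbol. The transcript was the coding one that held most listed positions, then the principal and the longest one. Sequence came from the RefSeq copy of GRCm38, which is not the 129 strain of the cells. Coding sequences were aligned with match 2, mismatch -1, gap opening -6 and extension -0.5. Positions named were 1 per gene with the most WT or comparison tools (ties went to the fewest KO tools, then to genomic order), those that the same 3 or more tools listed in both libraries, and those in the KO lists of ELIGOS or xPore. The other positions named, such as those without a KO tool, were chosen after their values were seen. The 9 genes, the pathway and marker lists and these rules were chosen with earlier results of these data known. Placement and intervals were tested on simulated data. The tools were biopython 1.88, pysam 0.24.0, pandas 2.3.3, numpy 2.4.6, matplotlib 3.10.9 and scipy 1.17.1 under Python 3.11.15. Alternatives were matching within 5 bp, 1 count per line, other windows, lists without Tombo or MINES and the KO list of any tool.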

Additional observations from a re-analysis of the deposited data

How the results depend on the processing

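Of 73 alternatives tried on 16 values of the 9 genes, 61 stayed within 1.5 times the count or within the interval of the share. The other 12 moved further. The values are counts and shares, so none had a direction that could turn. Counting each line of the lists rather than each position gave 774 in place of 226 positions in any list, 452 in place of 206 in WT or comparison lists and 322 in place of 168 in KO lists. Without Tombo, 98 positions remained in KO lists, 139 in WT or comparison lists and 152 in any. With the KO list of any tool in place of the same tool, the share of WT positions listed again was 86.5% for Nanom6A, 65.9% for m6Anet, 100% for ELIGOS and 62.8% for Epinano. Windows of 100 nt and 400 nt around the stop codon gave 10.3% and 32.8% of the WT positions and 12.2% and 39.6% of the KO positions. Joining or matching positions within 5 bp, leaving out MINES, the longest coding transcript, the genome 5-mer and positions within exons of only 1 gene stayed within these limits for the values they apply to. No value was possible for the share of GGACT over positions in at least 2 comparison lists, or for the lines of such positions, since there were 0. No paired analysis was possible because each group has 1 library. Leaving out a replicate, and any change of score, coverage or rate, could not be run either. Depth per position limits every count here, since a list does not show which positions had enough reads in KO to be called.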

Other observations

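Of the 226 positions, 20 in 4 genes had another listed position of the same gene within 10 nt (8.85%, 5.80% to 13.3%), against 10.8% over all positions. In exon 7 of Hnrnpa2b1, 2 GGACC motifs follow each other so closely that their windows share both motifs, at chr6:51466176 (gcaattttGGACCaggaccag) and chr6:51466170 (ttggaccaGGACCaggaagca). MINES, Nanom6A and m6Anet listed both in KO. In WT, Tombo, MINES and Nanom6A listed the former, and MINES, Nanom6A and m6Anet the latter. On the alternative 3′ UTR of the same gene, the GAACC at chr6:51462044 (attgatatGAACCatggacaa) precedes the GGACA at chr6:51462037 (tgaaccatGGACAagtatatt), and Tombo, Nanom6A and ELIGOS listed both in WT, with Tombo and Nanom6A listing both again in KO.

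Writer and reader genes outside the 9 also held positions in KO only. Ythdc2, a YTH-domain helicase of the germline, had 8 positions in KO and 0 in WT, and Rbm15, an adaptor of the writer complex, had 22 in KO and 3 in WT. In the 9 genes, KO lists held more positions than WT lists only in Hnrnpa2b1, with 33 against 32.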
